A study of Mus musculus with 12 samples.

Results

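The genes described here make, store and release glycogen, the branched glucose polymer that hepatocytes keep as a short-term reserve. They are 9 genes, *Gys2*, *Gyg*, *Gbe1*, *Ugp2*, *Pygl*, *Phka2*, *Ppp1r3b*, *Ppp1r3c* and *Ppp1r3g*, which were taken by their Ensembl gene symbol from a table of 54838 genes. Liver RNA was sequenced from 12 wild-type female C57BL/6J mice aged 8 to 14 weeks, with 3 mice in each of 4 groups. For 7 days the drinking water was plain or held 25 mM ZnSO4, and the mice were then injected with PBS alone or with 200 µg of dexamethasone (Dex) in PBS. Dex is a synthetic glucocorticoid that activates the glucocorticoid receptor. Tissue was collected 2 h later, and food was freely available. Sex and age are those stated for such mice in the study as a whole. The control group is called water-PBS, and the treated groups are zinc-PBS, water-Dex and zinc-Dex. The experiment was set up to find out what zinc changed in gene expression and whether it altered the response to Dex.

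Liver glycogen is made from UDP-glucose and is lengthened by glycogen synthase, branched by the branching enzyme, and shortened again by glycogen phosphorylase. Synthase is active when it carries no phosphate and phosphorylase is active when it carries one, so kinases push towards breakdown and protein phosphatase 1 pushes towards synthesis. Protein phosphatase 1 is brought to the glycogen particle by targeting subunits of the PPP1R3 family. Glucocorticoids owe their name to their action on glucose, and raised glycogen storage in liver is one of their classic effects.

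Levels are read counts normalized with the size factors of DESeq2, given for single mice or as mean ± SD over the 3 mice of a group (n = 3). Genes were called higher or lower at an adjusted p under 0.05 in the Wald test of DESeq2, which was fitted on all 12 libraries and adjusted over all genes tested. Counts at an unadjusted p under 0.05 have no share of all genes beside them, and no excess can be read from them. The libraries held 9091152 to 12303527 counts. The hepatocyte markers were high in every library. The summed markers of skeletal muscle and adipose tissue were at or near 0, with a highest sum of 13.5 normalized counts, for muscle in zinc-PBS. Of 4 pancreas markers 3 were at 0 in all libraries, and *Cela1* was found in each, with sums of 61.9 to 134. By the hepatocyte markers the livers matched their label. In bulk liver, fewer cells of a type and less RNA per cell cannot be told apart.

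Among these genes the 3 targeting subunits of protein phosphatase 1 carried almost all of the response. *Ppp1r3c* fell with zinc alone, a call that a second tool, edgeR, did not make. It rose with Dex, to nearly the same level in both Dex-injected groups. *Ppp1r3b* rose with Dex, but in water mice this call was lost in 7 of 14 refits under other settings. *Ppp1r3g*, which was close to silent without Dex, rose with Dex in zinc-treated mice. It stood higher there than in mice given Dex alone, by a call at the threshold that edgeR did not make. In water mice its rise with Dex was not called. The difference between the Dex effects in zinc-treated and in water mice was not called for any of these genes. The genes of the enzymes of synthesis and breakdown gave a single call, that of the synthase gene *Gys2* when zinc and Dex were combined.

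**Figure D1:**
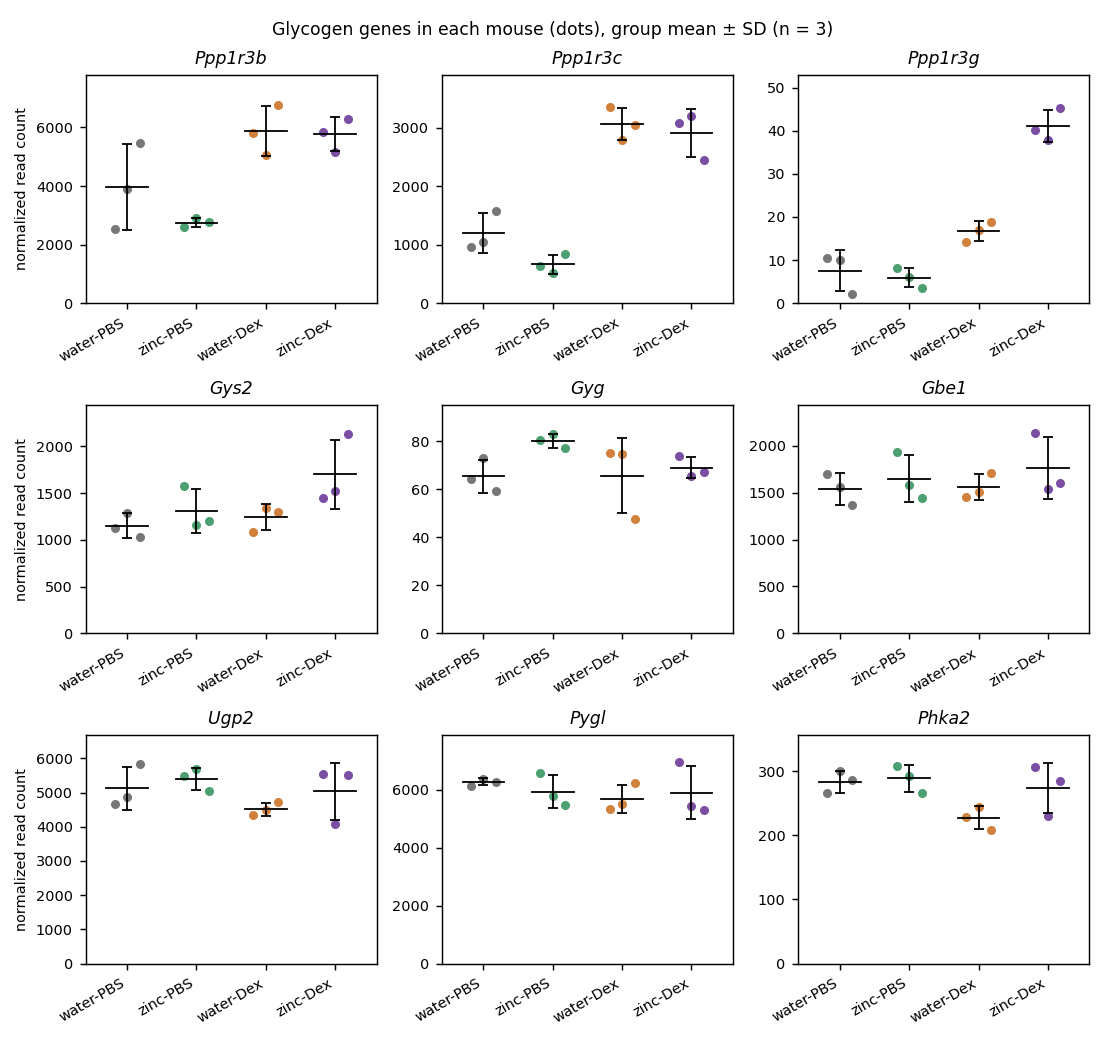
Normalized read counts (vertical axes, each from 0) of the 9 glycogen genes in the 4 groups; each dot is 1 mouse, and the bars give the group mean and SD (n = 3). *Ppp1r3c* lies between 2445 and 3350 in the 6 Dex-injected mice and between 521 and 1583 in the others, *Ppp1r3g* is highest in zinc-Dex, *Gys2* is higher in all zinc-Dex mice than in all mice of both water groups, and no other gene of the last 6 panels was called.

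*Ppp1r3c* (ENSMUSG00000067279, GRCm38 chromosome 19, 36731731 to 36736653, minus strand) encodes the targeting subunit also known as PTG, a scaffold that binds the phosphatase, glycogen and its enzymes. The stretch before its start is shown because this gene gave the largest number of calls and its promoter was the only one at hand for the 9 genes with an E-box (CACGTG, in capitals). It comes from RefSeq (GRCm38.p6, chr19:36736654-36736854, minus strand, written 5′ to 3′) and ends just before the first exon of the GENCODE M21 annotation.

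Ppp1r3c: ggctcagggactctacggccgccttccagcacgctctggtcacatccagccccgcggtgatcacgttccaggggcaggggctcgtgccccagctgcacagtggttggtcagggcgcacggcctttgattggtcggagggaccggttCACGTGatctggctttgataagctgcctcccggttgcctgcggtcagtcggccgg

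The E-box begins 55 bases before that exon. Of 32851 RefSeq promoters, searched over the 250 bases before their start sites on both strands, 6.02% held this palindrome. A match is a description of the letters and says nothing of binding.

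In water-PBS the 3 mice had 959.8, 1053 and 1583 normalized counts of *Ppp1r3c*. In zinc-PBS they had 640.0, 521 and 836. Every zinc-treated mouse lay below every control, by a narrow gap. The gene fell 1.80-fold with zinc (log2 fold change -0.85, SE 0.194, DESeq2 adjusted p 0.00662). This was 1 of 9 genes called lower, against 0.130% of all 12307 genes tested, and 0 of 9 were called higher, against 0.211% of all genes (2 of the 9 had an unadjusted p under 0.05 in DESeq2 and in edgeR). The call was not made by edgeR (adjusted p 0.207). The study's own list of liver genes changed by zinc does not hold *Ppp1r3c*. That list was made with DESeq2 at an absolute log2 fold change above 0.8 and p under 0.05, and the reason for the difference was not tested. The call was also lost without water-PBS replicate 3 (log2 -0.60, adjusted p 0.0681), without zinc-PBS replicate 1 (adjusted p 0.0813) and without zinc-PBS replicate 2 (adjusted p 0.112), all by DESeq2.

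With Dex the level was 3350, 2795 and 3044 in the water-Dex mice. The zinc-Dex mice had 3075, 3204 and 2445. All 6 Dex-injected mice lay above all 6 PBS-injected mice, and the Dex-injected groups overlapped each other. *Ppp1r3c* rose 2.56-fold with Dex in water mice (log2 1.35, SE 0.192, DESeq2 adjusted p 5.1e-11) and 4.37-fold in zinc-treated mice (log2 2.13, SE 0.193, DESeq2 adjusted p 2.5e-26). Zinc gave no call in Dex-injected mice (log2 -0.08, 95% interval -0.45 to 0.30, DESeq2 adjusted p 0.966). The larger fold in zinc-treated mice thus started from a lower level and ended at a similar one. The difference between the 2 Dex effects was 0.77 on the log2 scale (95% interval 0.24 to 1.31), with an unadjusted p of 0.00448 and a DESeq2 adjusted p of 0.999, so it was not called.

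*Ppp1r3b* (ENSMUSG00000046794, chromosome 8, 35375739 to 35388139, plus strand) encodes GL, the targeting subunit best known from liver, where active phosphorylase binds to it and restrains it. The 3 control mice were far apart, with 2549, 3900 and 5460 normalized counts. The zinc-PBS mice lay close together at 2584, 2899 and 2769. The zinc-treated mice thus fell at the lower end of the control range, and the groups overlapped. The log2 fold change with zinc was -0.53 (95% interval -0.92 to -0.14) and was not called (DESeq2 adjusted p 0.472). Without water-PBS replicate 1, the lowest control, it was called (log2 -0.77, DESeq2 adjusted p 0.000561). Without water-PBS replicate 3, the highest control, it was -0.23 (DESeq2 adjusted p 0.822).

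In water-Dex the level of *Ppp1r3b* was 5817, 5061 and 6756. In zinc-Dex it was 5850, 5172 and 6299. Both Dex-injected groups lay above all zinc-PBS mice, but each overlapped the highest control. *Ppp1r3b* rose 2.10-fold with Dex in zinc-treated mice (log2 1.07, SE 0.200, DESeq2 adjusted p 1.57e-06), a call that held in each of the 14 refits. In water mice it rose 1.48-fold (log2 0.57, SE 0.200, DESeq2 adjusted p 0.0256), a call that was lost in 7 of 14 refits. Among these it was lost in edgeR (adjusted p 0.0516), with only the 6 libraries compared (adjusted p 0.274) and without water-PBS replicate 1 (log2 0.33, adjusted p 0.120). It was lost as well without water-PBS replicate 2, water-Dex replicate 1 or water-Dex replicate 3 (DESeq2 adjusted p 0.0824, 0.0656 and 0.163). The difference between the 2 Dex effects was 0.50 (95% interval -0.05 to 1.06) and was not called (unadjusted p 0.0753, DESeq2 adjusted p 0.999).

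*Ppp1r3g* (ENSMUSG00000050423, chromosome 13, 35958839 to 35970388, plus strand) encodes a targeting subunit that has been tied to the storage of glucose after meals. Its upstream stretch is shown beside that of *Ppp1r3c*, since both genes were called higher with Dex in zinc-treated mice. It comes from the same RefSeq build (chr13:35967656-35967852, plus strand, 5′ to 3′), lies before one of the GENCODE first exons, and holds none of the E-box letters, so nothing is in capitals.

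Ppp1r3g: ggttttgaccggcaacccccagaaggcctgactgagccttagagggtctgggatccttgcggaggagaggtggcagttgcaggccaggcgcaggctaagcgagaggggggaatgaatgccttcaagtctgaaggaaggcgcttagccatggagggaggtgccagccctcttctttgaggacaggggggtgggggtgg

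The gene was weakly expressed. The raw counts were 10, 11 and 2 in water-PBS and 9, 7 and 4 in zinc-PBS. They were 14, 16 and 19 in the water-Dex mice, and those given zinc as well had 37, 34 and 47. After normalization the means were 7.57 ± 4.66, 5.96 ± 2.26, 16.7 ± 2.31 and 41.0 ± 3.78 in the same order. The PBS-injected groups overlapped, all water-Dex mice lay above them, and all zinc-Dex mice lay above all others.

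*Ppp1r3g* rose 6.90-fold with Dex in zinc-treated mice (log2 2.79, SE 0.453, DESeq2 adjusted p 1.85e-08), and this call held in each of the 14 refits. In water mice the log2 fold change was 1.11 (95% interval 0.20 to 2.03) and was not called (DESeq2 adjusted p 0.0706). Between the Dex-injected groups it rose 2.46-fold with zinc (log2 1.30, SE 0.380, DESeq2 adjusted p 0.0480). That call sat at the threshold and was lost in edgeR (adjusted p 0.0823), without independent filtering (adjusted p 0.0983), with total count scaling (adjusted p 0.0822) and without water-Dex replicate 3 (adjusted p 0.167). Without each of the other 5 Dex-injected mice in turn DESeq2 gave the gene no adjusted p, because its mean lay below the limit that the independent filtering set, and the log2 fold change was 1.20 to 1.36. The difference between the Dex effects in zinc-treated and in water mice was 1.67 (95% interval 0.40 to 2.95), with an unadjusted p of 0.0102 and a DESeq2 adjusted p of 0.999.

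The 2 main subunit genes can be set side by side per kilobase of exon, a scale for comparing levels of different genes. The length is that of all annotated exons of a gene together, which can differ from the transcripts made. Which of 2 genes stands higher can depend on this length, while the shift of a ratio between groups does not. Over the 7 genes *Ppp1r3a* to *Ppp1r3g*, the summed level was 1098 ± 349 normalized counts per kilobase in water-PBS and 707 ± 58.6 in zinc-PBS. With Dex it was 2088 ± 204 in water mice and 2023 ± 78.6 in zinc-treated mice. The lowest Dex-injected mouse (1854) lay above the highest PBS-injected mouse (1474). *Ppp1r3b* and *Ppp1r3c* made up nearly all of it. On this scale *Ppp1r3b* stood above *Ppp1r3c* in each PBS-injected mouse, with ratios to *Ppp1r3c* from 1.16 to 2.44. In water-Dex *Ppp1r3c* stood above *Ppp1r3b* in all 3 mice (ratios 0.761 to 0.973), and in zinc-Dex in 2 of 3 (0.708 to 1.13). *Ppp1r3g* held 0.304% ± 0.226 of the family's level in water-PBS and 0.755% ± 0.0953 in zinc-Dex.

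**Figure D2:**
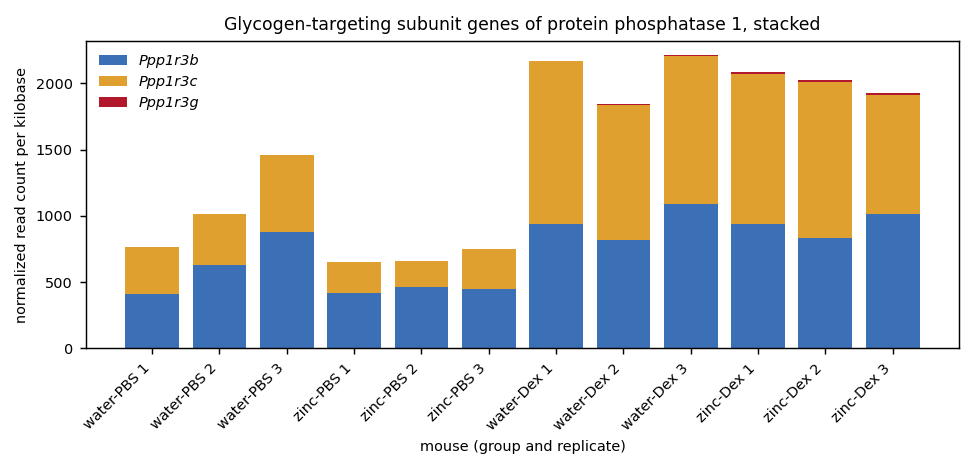
Normalized read counts per kilobase of exon (vertical axis, from 0) of 3 subunit genes of protein phosphatase 1, stacked for each of the 12 mice (horizontal axis). *Ppp1r3b* and *Ppp1r3c* fill the bars, which are tallest in the 6 Dex-injected mice, and *Ppp1r3g* is barely visible.

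Of the synthesis genes, *Ugp2* (ENSMUSG00000001891, chromosome 11, 21321138 to 21371201, minus strand), whose enzyme makes UDP-glucose, had the highest level per kilobase of the 9 genes. *Gys2* (ENSMUSG00000030244, chromosome 6, 142422613 to 142473109, minus strand) encodes the liver isoform of glycogen synthase. *Gyg* (ENSMUSG00000019528, chromosome 3, 20122084 to 20155317, minus strand) encodes glycogenin, which primes new particles. *Gbe1* (ENSMUSG00000022707, chromosome 16, 70313949 to 70569716, plus strand) encodes the branching enzyme.

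*Gys2* had 1132, 1292 and 1035 normalized counts in water-PBS and 1581, 1154 and 1200 in zinc-PBS. With Dex it had 1083, 1344 and 1302 in water mice and 1446, 1527 and 2128 in zinc-treated mice. The first 3 groups overlapped, and all zinc-Dex mice lay above all mice of both water groups, with replicate 3 far above the rest. *Gys2* was 1.48-fold higher in zinc-Dex than in water-PBS (log2 0.56, SE 0.165, DESeq2 adjusted p 0.00446). Without zinc-Dex replicate 3 this was 0.37 and not called (DESeq2 adjusted p 0.0809), and with total count scaling it was 0.32 and not called (DESeq2 adjusted p 0.104). Neither treatment by itself gave a call, with log2 fold changes of 0.19 for zinc in PBS-injected mice and 0.11 for Dex in water mice. The log2 fold change of Dex in zinc-treated mice was 0.38 (DESeq2 adjusted p 0.0929). It was called without zinc-PBS replicate 1 (log2 0.53, adjusted p 0.0107) or without zinc-Dex replicate 1 (log2 0.48, adjusted p 0.0359), both by DESeq2. That of zinc in Dex-injected mice was 0.45 (DESeq2 adjusted p 0.190).

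*Ugp2* had means of 5125 ± 635, 5405 ± 322, 4518 ± 188 and 5038 ± 839.9 in water-PBS, zinc-PBS, water-Dex and last zinc-Dex. *Gbe1* had 1542 ± 169, 1649 ± 252, 1558 ± 137 and 1759 ± 329. *Gyg* had 65.4 ± 6.85, 80.1 ± 3.05, 65.7 ± 15.8 and 68.9 ± 4.39. None of these 3 genes was called in any of the 6 comparisons. Their log2 fold changes lay between -0.22 and 0.29, and the widest 95% interval of the 5 group comparisons, that of *Gyg*, ran from -0.42 to 0.42 for Dex in water mice. All zinc-PBS mice exceeded all water-PBS mice for *Gyg*, with a log2 difference of 0.29 (DESeq2 adjusted p 0.9999).

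On the breakdown side, *Pygl* (ENSMUSG00000021069, chromosome 12, 70190811 to 70231488, minus strand) encodes the liver glycogen phosphorylase. Its means were 6263 ± 120.2, 5925 ± 569.5, 5681 ± 480.3 and 5896 ± 907.5 in the same order, and the groups overlapped in each comparison. The 95% intervals of its 4 single-treatment log2 fold changes all lay between -0.36 and 0.28, and none was called. *Phka2* (ENSMUSG00000031295, chromosome X, 160502166 to 160598878, plus strand) encodes the liver alpha subunit of phosphorylase kinase, the enzyme that switches phosphorylase on. It had 266, 299 and 286 normalized counts in water-PBS and 228, 245 and 209 in water-Dex. The 2 groups did not overlap, yet the log2 fold change of -0.32 (95% interval -0.58 to -0.06) was not called (DESeq2 adjusted p 0.0682). edgeR called it lower (log2 -0.33, adjusted p 0.0413). In zinc-treated mice the log2 fold change with Dex was -0.08 (DESeq2 adjusted p 0.776). The ratio of *Pygl* to *Gys2* per kilobase was 2.11 ± 0.217 in water-PBS, 1.76 ± 0.163 in zinc-PBS, 1.77 ± 0.168 in water-Dex and 1.39 ± 0.445 in zinc-Dex, and the water-PBS mice lay above all Dex-injected mice, by a narrow gap, but overlapped zinc-PBS.

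**Figure D3:**
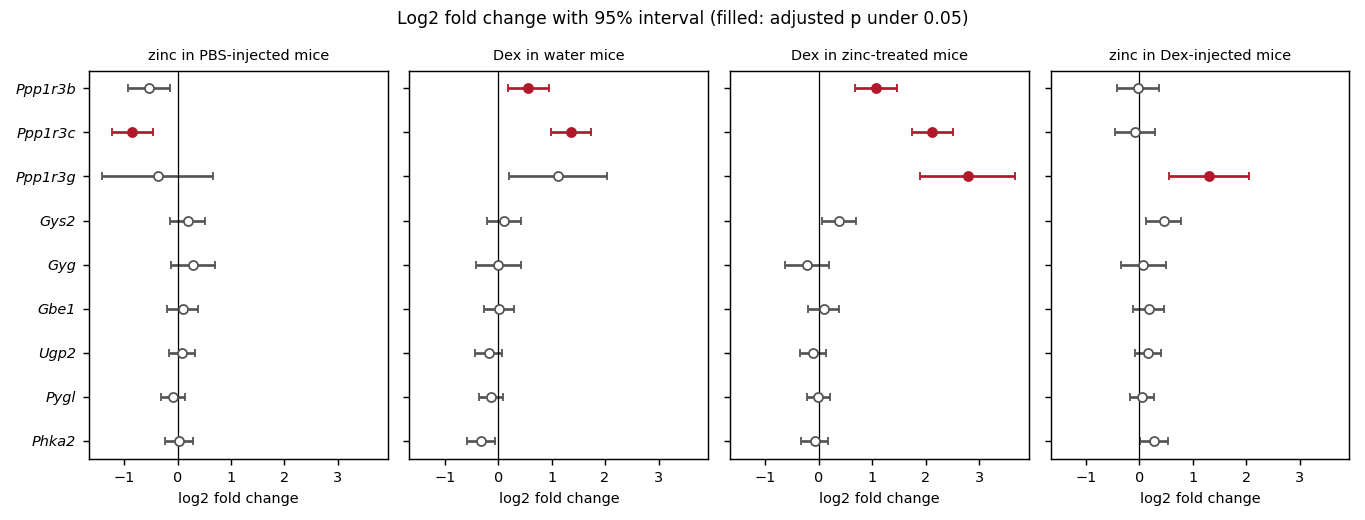
Log2 fold changes (horizontal axes) of the 9 genes in 4 comparisons, with 95% intervals from DESeq2; filled red symbols passed an adjusted p of 0.05. With Dex the filled symbols are *Ppp1r3b* and *Ppp1r3c* in water mice, joined by *Ppp1r3g* in zinc-treated mice, while the enzyme genes stay near 0.

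Counted over the 9 genes, all of which were tested in each comparison, 2 were called higher with Dex in water mice, against 11.7% of all 14221 genes tested, and 0 lower, against 9.91%. In zinc-treated mice 3 were called higher with Dex, against 11.0% of 15657 genes, and 0 lower, against 9.08%. In each of these comparisons 4 of the 9 had an unadjusted p under 0.05 by DESeq2 and by edgeR. The share of all genes at an unadjusted p under 0.05 was not counted, so no excess can be read from these 4. In Dex-injected mice 1 was called higher with zinc, against 0.915% of 12786 genes, and 0 lower, against 0.438%, and 3 had an unadjusted p under 0.05 by either tool. Zinc and Dex together, against water-PBS, gave 4 higher, against 13.2% of 14221 genes, and 0 lower, against 11.2%. These were *Ppp1r3g* (log2 2.42), *Ppp1r3c* (1.28), *Gys2* (0.56) and *Ppp1r3b* (0.54, DESeq2 adjusted p 0.0315). The comparisons share groups and are not independent of each other.

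The median log2 fold change of the 9 genes was 0.02 with Dex in water mice and 0.09 in zinc-treated mice, against -0.01 over all genes tested in both. The middle gene of the 9 thus lay close to the middle gene of the whole table. In the test of the interaction, which asks whether zinc altered the Dex effect, 0 of 9 genes were called by DESeq2, against 0.00764% of 26185 genes called higher and 0.0153% called lower. edgeR also called 0, and 2 genes, *Ppp1r3c* and *Ppp1r3g*, had an unadjusted DESeq2 p under 0.05, as did 2 in edgeR.

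Dex also moved hepatocyte markers. Over 5 markers the summed level was 1141000 to 1331000 normalized counts in water-PBS and 1199000 to 1333000 in zinc-PBS. With Dex it was 1489000 to 1585000 in water mice and 1544000 to 1633000 in zinc-treated mice. With Dex 2 of 5 markers were called higher in water mice, against 11.7% of all genes tested, and 4 of 5 in zinc-treated mice, against 11.0%. The log2 fold changes of the called markers were 0.30 to 0.59 in water mice and 0.22 to 0.60 in zinc-treated mice. The sums of Kupffer cell and cholangiocyte markers overlapped between the PBS-injected and Dex-injected mice, while those of other cell types did not all do so. Of the endothelial markers *Lyve1* rose with Dex by log2 2.53 in water mice and 2.81 in zinc-treated mice, and *Kdr* fell by 1.14 and 1.26 on the log2 scale. Of the stellate cell markers *Lrat* fell with Dex in water mice by 0.72 on the log2 scale, and *Dcn* rose in zinc-treated mice by 0.34. The stellate sums were higher with Dex in all mice, at 3581 to 3611 against 3305 to 3525 in water mice and 3479 to 4215 against 3177 to 3219 in zinc-treated mice. In zinc-treated mice the endothelial sums were also higher with Dex (2694 to 2845 against 2483 to 2575). The leukocyte sums there were lower (1132 to 1424 against 1562 to 1625), with *Ptprc* called lower (log2 -0.40). Of 36 listed markers of all cell types, DESeq2 gave 23 an adjusted p for zinc in PBS-injected mice and called 0, with 0 at an unadjusted p under 0.05. edgeR tested 24 and called 0, with 1 at an unadjusted p under 0.05. The part of these marker changes in the Dex results was not tested. When libraries were scaled to their total counts, all log2 fold changes with Dex shifted, by a median of -0.20 in water mice and -0.23 in zinc-treated mice. On that scale the call of *Ppp1r3b* in water mice was lost (log2 0.36, DESeq2 adjusted p 0.174), and *Phka2* (log2 -0.52), *Ugp2* (-0.38) and *Pygl* (-0.34) were called lower. *Ppp1r3c* kept its call with Dex on that scale, at log2 1.15 in water mice.

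Per kilobase of exon, the order of levels in control liver was *Ugp2* (1670 ± 207 normalized counts per kilobase), *Pygl* (908 ± 17.4), *Ppp1r3b* (639 ± 234), *Ppp1r3c* (439.8 ± 123), *Gys2* (434 ± 49.0), *Gbe1* (288 ± 31.6), *Phka2* (46.7 ± 2.79), *Gyg* (27.9 ± 2.92) and *Ppp1r3g* (2.81 ± 1.73). *Ppp1r3b* overlapped *Ppp1r3c*, and *Ppp1r3c* overlapped *Gys2*. All other neighbours in this order were apart in all 3 mice. The genes for glycogen priming and for the kinase subunit thus stood well below those for the bulk enzymes, with *Ppp1r3g* last.

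A further 28 genes of glycogen and glucose-phosphate handling were listed. With zinc in PBS-injected mice 0 of the 24 tested were called higher, against 0.211% of all genes, and 1 lower, *G6pc*, against 0.130%. With Dex in water mice 5 of 25 were called higher, against 11.7% of all genes, and 2 lower, against 9.91%. In zinc-treated mice 4 were called higher with Dex, against 11.0%, and 3 lower, against 9.08%. With zinc in Dex-injected mice 0 of 24 were called by DESeq2 or by edgeR, with 5 at an unadjusted p under 0.05 in each. Over all genes DESeq2 called 0.915% higher and 0.438% lower there. In the interaction 0 were called by either tool, with 2 at an unadjusted p under 0.05 in DESeq2 and 3 in edgeR. Over all genes DESeq2 called 0.00764% higher and 0.0153% lower in it.

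**Figure D4:**
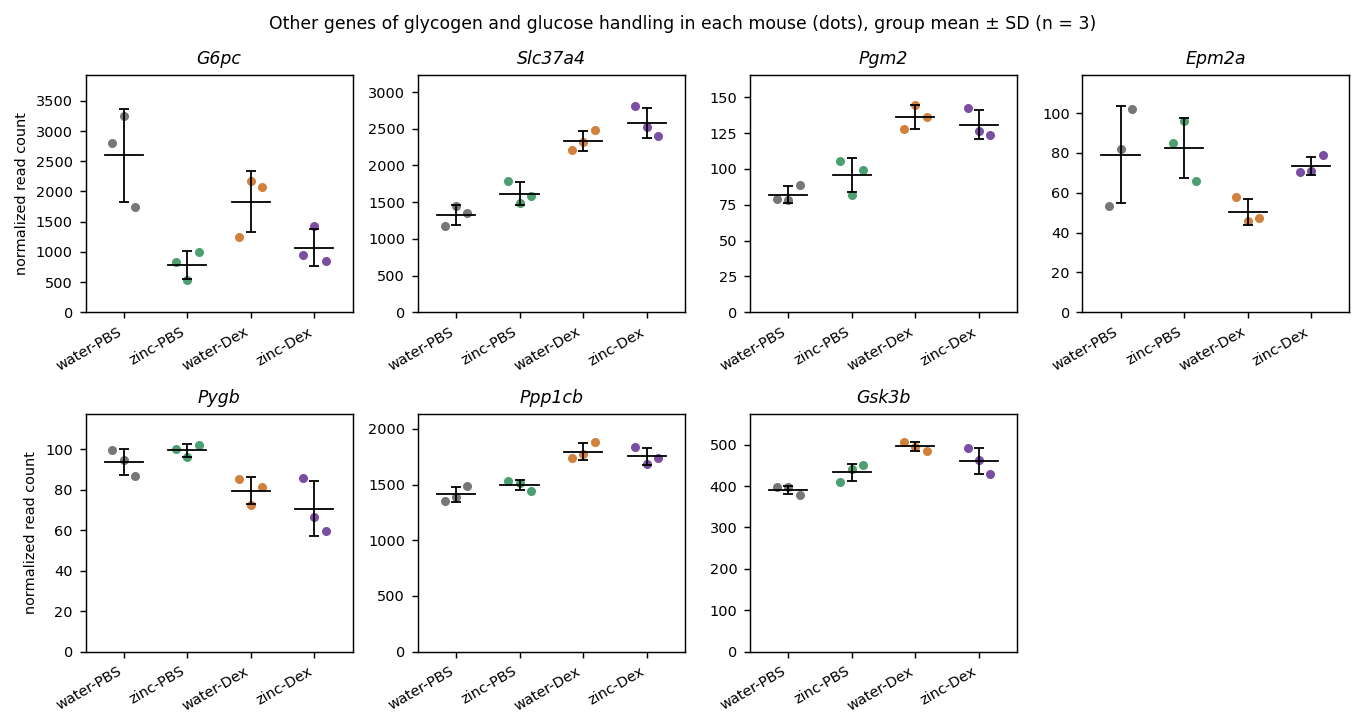
Normalized read counts (vertical axes, each from 0) of 7 further genes in the 4 groups; each dot is 1 mouse, and the bars give the group mean and SD (n = 3). *Slc37a4* is higher in all Dex-injected mice than in all others, and *G6pc* is lower in all zinc-PBS mice than in all water-PBS mice.

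Of the named genes of substrate supply, of the phosphatase and of the synthase kinases, 3 rose with Dex in water mice. *Pgm2*, a phosphoglucomutase gene, rose with Dex by log2 0.74 in water mice and 0.45 in zinc-treated mice (DESeq2 adjusted p 0.000144 and 0.0319). *Ppp1cb*, a catalytic subunit gene of protein phosphatase 1, rose by 0.35 and 0.23 (DESeq2 adjusted p 2.3e-05 and 0.0122). *Gsk3b*, whose kinase phosphorylates glycogen synthase, rose by 0.34 in water mice (DESeq2 adjusted p 0.00258), while its log2 fold change in zinc-treated mice was 0.09.

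At the exit, *G6pc*, which encodes the catalytic subunit of glucose-6-phosphatase, had 2802, 3250 and 1747 normalized counts in water-PBS and 828, 538.5 and 999.5 in zinc-PBS. All zinc-treated mice lay below all controls, and *G6pc* fell by 1.72 on the log2 scale (SE 0.339, DESeq2 adjusted p 0.000486). *Slc37a4*, the gene of the transporter that carries glucose-6-phosphate to that enzyme, rose with Dex by log2 0.82 in water mice (DESeq2 adjusted p 9.8e-13) and by 0.67 in zinc-treated mice (DESeq2 adjusted p 5.8e-09). *Epm2a*, which encodes the glycogen phosphatase laforin, fell with Dex in water mice by 0.65 on the log2 scale (DESeq2 adjusted p 0.0439), with overlapping groups. Its log2 fold change with Dex in zinc-treated mice was -0.16 (DESeq2 adjusted p 0.729). *Pygb*, the brain isoform of phosphorylase, fell with Dex in zinc-treated mice by 0.50 on the log2 scale (DESeq2 adjusted p 0.0394). Its log2 fold change with Dex in water mice was -0.24 (DESeq2 adjusted p 0.424).

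Of the 9 genes, 7 had a RefSeq promoter entry, and these were searched for further letters, over 250 bases before the start and on both strands. The half-site AGAACA of the glucocorticoid receptor was in 1 of them, *Phka2*, and in 16.1% of all 32851 promoters. The full palindrome of this half-site with a spacer of 3 bases was in 0 of them and in 0.00913% of all. The metal response element core, TGCACNC or TGCGCNC, was in *Gyg*, *Ppp1r3c*, *Pygl* and *Ugp2* and in 21.4% of all. The cyclic AMP response element TGACGTCA was in 0 of them and in 1.55% of all.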

How the data were processed

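The authors mapped single-end reads of stranded TruSeq libraries (Illumina NextSeq) to mouse mm10 with hisat 2.0.4 and made counts per gene with featureCounts, excluding multimapping reads; the deposited table holds these raw counts, 1 column per mouse. The annotation release and strand setting are not given in the sources used here. Of the 9 genes, 5 overlap an opposite-strand gene, each with at most 68 counts over all libraries. Symbols, coordinates and exon lengths come from GENCODE M21 (GRCm38).

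DESeq2 1.42.0 in R 4.3.3 was fitted to the 12 libraries with 1 coefficient per group (Wald test, unshrunken log2 fold changes, default filters, FDR 5% after the study's methods). For groups of 3 mice the smallest p of an exact permutation test is 0.1, so calls rest on the spread shared across genes. Alternatives were edgeR 4.0.16 (quasi-likelihood), TMM factors, a low count filter (10 or more counts in 3 or more libraries, 13255 genes), only the 6 libraries compared, an absolute log2 fold change above 0.8, no independent filtering, no Cook filter, a replicate block and leaving out each library; scaling by total counts was added after seeing the data. Both tools were also run on simulated data, with Dex effects planted only in genes with a mean normalized count of 50 or more. Recovery of an interaction, or of a change in a gene as low as *Ppp1r3g*, was not tested, and the outcome is not given here. The genes, lists and tests were chosen with earlier results of these data known. All 9 genes are named; of the 28 further genes, the 8 with a mean normalized count of 50 or more, a call in 1 of the 4 single-treatment comparisons and the largest log2 fold changes were chosen, of which 1 is not reported here.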

Additional observations from a re-analysis of the deposited data

How the results depend on the processing

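In PBS-injected mice the count of genes called with zinc, 1 of 9, became 0 in edgeR and ranged from 0 to 2 when each library was left out. With Dex in water mice the count of 2 became 1 with only the 6 libraries compared and 1 with a fold change threshold. It became 4 with total count scaling, including the lower calls given above, and ranged from 1 to 2 without single libraries. In edgeR it was also 2, but with 1 gene called higher and 1 lower. With Dex in zinc-treated mice the count of 3 ranged from 3 to 4 without single libraries. It was 4 with total count scaling, where *Ugp2* was called lower (log2 -0.33, DESeq2 adjusted p 0.0416). With zinc in Dex-injected mice the count of 1 became 0 in edgeR, without independent filtering, with total count scaling and in the replicate block, and was 0 without any single library. For zinc and Dex together the count of 4 became 2 with a fold change threshold and 3 in edgeR and without independent filtering. It ranged from 2 to 4 without single libraries. With total count scaling it was 3 as well, but not of the same genes. On that scale *Gys2* and *Ppp1r3b* lost their calls (DESeq2 adjusted p 0.104 and 0.263), and *Pygl* was called lower (log2 -0.33, DESeq2 adjusted p 0.0104). The interaction count stayed at 0. The cause of these shifts was not tested, except that under the block and without 5 of the libraries *Ppp1r3g* had no adjusted p. The labels do not say whether the replicate numbers pair the mice. Correlations of deviations between same-numbered mice ran from -0.20 to 0.19, and 3 of 12 libraries correlated best with their own number. With so few mice in a group these values cannot decide the question. In the replicate block the 4 other comparisons with calls had the counts given first above (1, 2, 3 and 4), and *Ppp1r3g* had a log2 fold change of 1.30 with zinc in Dex-injected mice. For *Ppp1r3b* with zinc and Dex together, the call was lost in 7 of 14 refits. In 0 of 778 refits of single genes did a call change sign, and 32 changed sign between values that were not called. Depth limits *Ppp1r3g*, with at most 47 counts in a library.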

Other observations

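The genes whose levels across the 12 libraries were most like those of the 3 subunit genes were looked up among the 9574 genes whose mean normalized count was 50 or more, by Pearson's r of log2(normalized count + 1). For *Ppp1r3b* they were *Sdf4*, *Shroom1* and *Ppa1* (r 0.937, 0.937 and 0.931). For *Ppp1r3c* they were *Tsc22d1*, *Cep85l* and *Capn15* (r 0.961, 0.961 and 0.958). For *Ppp1r3g* they were *Glns-ps1*, *Sik3* and *Rassf2* (r 0.950, 0.940 and 0.939). The points share the contrast between Dex-injected and PBS-injected mice, so these values describe the libraries and are not tests.

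Within the water-PBS group the mouse with the highest *Ppp1r3b* (5460 normalized counts) also had the highest *Ppp1r3c* (1583) and *Ugp2* (5847). It had the lowest *Ppp1r3g* (2.20, from 2 raw counts), *G6pc* (1747), *Gys2* (1035), *Gyg* (59.3) and *Gbe1* (1365). For *Pygl* and *Phka2* it lay between the other mice of the group. With 3 mice no relation was computed.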
